A study of Rattus norvegicus with 6 samples.

Results

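The miR-30 family was followed through 10 mature arms of the small RNA table, taken by name from 764 rat miRNA entries: rno-miR-30a-5p, rno-miR-30a-3p, rno-miR-30b-5p, rno-miR-30c-5p, rno-miR-30c-1-3p, rno-miR-30c-2-3p, rno-miR-30d-5p, rno-miR-30d-3p, rno-miR-30e-5p and rno-miR-30e-3p. All 10 had reads in every library. The table comes from 6 libraries of tissue labelled testicle, 3 from wild type rats and 3 from rats labelled HO-1 knockout, all male Sprague Dawley animals. HO-1 is heme oxygenase 1, the inducible enzyme that degrades heme, and its messenger RNA is not part of this assay, so the genotype labels were not checked against it. Every animal had a testicular torsion of 720° for 2 h followed by 3 days of reperfusion, so genotype was the only contrast and no uninjured library was analysed here. The labels leave out the animals' age and the knockout allele, and do not say that each library stands for its own animal, so p-values reflect the spread between libraries, which may be technical. Wherever 3 values of a genotype follow each other, they are those of its libraries 1, 2 and 3 in that order.

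miR-30 miRNAs are known from many tissues, among them kidney, liver, heart and fat. A mature miRNA guides an Argonaute protein to messenger RNAs that pair with its seed, and the arms of this family that come from the 5′ side of the hairpin share 1 seed, so their known targets overlap, among them regulators of autophagy and of connective tissue growth factor. Each hairpin can also give a 3p arm, usually the rarer one, with a different seed and so other predicted targets. The 6 hairpins lie in 3 neighbouring pairs in the RefSeq gene table of the assembly GRCr8: miR-30a with miR-30c-2, miR-30b with miR-30d, and miR-30e with miR-30c-1. The last pair lies inside Nfyc, the gene of a subunit of the NF-Y transcription factor, and the miR-30b and miR-30d pair inside 1 long noncoding RNA gene.

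RefSeq (GRCr8) held mature sequences for 6 of the 10 arms, and none for miR-30b-5p, miR-30d-5p, miR-30d-3p and miR-30e-3p. The sequences found are printed 5′ to 3′ because the seeds and the few bases that differ decide which arms can be told apart. Capitals mark the seed, bases 2 to 8.
miR-30a-5p: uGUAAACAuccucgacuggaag
miR-30e-5p: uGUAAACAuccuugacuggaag
miR-30c-5p: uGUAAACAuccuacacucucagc
miR-384-5p: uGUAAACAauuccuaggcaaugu
miR-30a-3p: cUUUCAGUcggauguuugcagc
miR-30c-1-3p: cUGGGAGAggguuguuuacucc
miR-30c-2-3p: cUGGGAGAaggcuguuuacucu

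The seed GUAAACA was found in 4 of the 693 mature names of that table, the fourth being miR-384-5p, which is not a miR-30 arm. This search could not include miR-30b-5p and miR-30d-5p, whose sequences were missing. miR-384-5p had 0 reads in the 3 wild type libraries, where 3 reads would equal 0.299 to 0.329 RPM (reads per 1000000 assigned reads), and 3 reads in all over the knockout libraries. Among these 4 names, reads with the seed thus came almost wholly from miR-30 arms. miR-30a-5p and miR-30e-5p differ by 1 substitution, C13U, counted from base 1 at the 5′ end of miR-30a-5p. miR-30c-1-3p and miR-30c-2-3p differ by G9A, U12C and C22U, counted likewise along miR-30c-1-3p. How reads with a mismatch were assigned between such close arms is not stated in the sources used here.

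The miR-30c hairpins are shown with their mature arms in capitals, beside that of miR-30a, because they give 1 identical 5p arm and different 3p arms.
Mir30a: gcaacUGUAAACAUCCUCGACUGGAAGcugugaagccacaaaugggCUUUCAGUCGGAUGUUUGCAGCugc
Mir30c2: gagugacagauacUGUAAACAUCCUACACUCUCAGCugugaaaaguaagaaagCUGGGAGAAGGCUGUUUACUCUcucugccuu
Mir30c1: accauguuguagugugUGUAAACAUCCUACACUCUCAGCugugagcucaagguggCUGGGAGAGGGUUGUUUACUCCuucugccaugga

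Reads of miR-30c-5p thus cannot be assigned to 1 of its 2 hairpins, whereas miR-30c-1-3p and miR-30c-2-3p each belong to 1. The arm miR-30c-2-3p made up 91.1%, 93.1% and 92.1% of the reads of both 3p arms in the wild type, against 89.9%, 88.6% and 90.4% in the knockout. The miR-30c-2 hairpin therefore gave most of the 3p reads in every library. How far this share carries over to the 5p arm was not measured.

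The libraries held 8300536 to 10042673 assigned reads, as recovered from the RPM steps. Some features of the whole table bear on the family. miR-122-5p, a miRNA of hepatocytes, took 32.7% to 36.6% of the reads in the wild type libraries and 40.2% to 46.4% in the knockout libraries, so other RPM values were measured against a total that it filled to a different degree. The other hepatocyte marker, miR-122-3p, overlapped between genotypes, at 1370 to 1465 RPM in the wild type against 1174 to 1455 RPM in the knockout. Of 11 germ cell and gonad markers, miR-202-3p, miR-880-3p and miR-883-3p were at 0 in every library, and the list summed to only 35.4 to 50.1 RPM in the wild type against 25.2 to 29.7 RPM in the knockout. The labelled tissue was thus poorly represented by its markers. Summed smooth muscle and fibroblast markers (5 of 5 present) ran from 11804 to 18895 RPM in the wild type, against 6606 to 8802 RPM in the knockout. Epithelial markers (5 of 5) ran from 1005 to 1700 RPM against 452 to 524 RPM, and endothelial markers (2 of 2) from 25222 to 26982 RPM against 19147 to 21287 RPM. Of 3 miRNAs listed for kidney and gut, the 2 in the table, miR-192-5p and miR-194-5p, ran from 65415 to 70873 RPM against 50810 to 55374 RPM. Which tissue these 2 came from was not tested. Red blood cell markers (4 of 4) ran from 467 to 580 RPM against 377 to 459 RPM. As sums, these lists and that of germ cells were lower in every knockout library, as were most miR-30 arms. So were 41.7% of the 218 miRNAs with a mean of at least 10 RPM. Not every marker followed its sum. Knockout means were higher for miR-200c-3p (58.8 against 46.4 RPM), miR-144-3p (36.8 against 32.2 RPM) and miR-202-5p (1.30 against 1.23 RPM), with overlap. Some other single markers overlapped as well. The part of these lists in the miR-30 values was not tested. Summed leukocyte markers (5 of 5), at 788 to 909 RPM against 838 to 945 RPM, overlapped between genotypes. Within that list miR-142-3p was higher in every knockout library, at 260 to 306 RPM in the wild type against 368 to 390 RPM. Each other leukocyte marker overlapped. Summed striated muscle markers (3 of 3), at 4.71 to 9.36 RPM against 4.19 to 8.22 RPM, overlapped too. In such bulk tissue, fewer cells of a type and less RNA per cell cannot be told apart.

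Taken as a whole, the 10 arms held 3.40%, 3.14% and 3.42% of all reads in the wild type against 2.16%, 2.69% and 2.82% in the knockout. Every knockout library was below every wild type library. As a share of the reads other than miR-122-5p, the family stood at 5.05%, 4.92% and 5.39% in the wild type against 4.03%, 4.51% and 5.004% in the knockout, and by that measure the genotypes overlapped. The 3p arms made up 3.27% ± 0.48 of the family's reads in the wild type against 3.37% ± 0.35 in the knockout (SD, n = 3).

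The 5p arms of miR-30c and miR-30d were the most abundant members. miR-30c-5p had 12116, 11501 and 12348 RPM in the wild type against 7570, 9911 and 10725 RPM in the knockout. miR-30d-5p had 10120, 8654 and 11017 RPM in the wild type against 6989, 8613 and 9279 RPM in the knockout. These RPM compare reads, not molecules, since adapter ligation favours some miRNA ends over others. In the wild type the order of mean levels was miR-30c-5p, miR-30d-5p, miR-30a-5p, miR-30e-5p, miR-30b-5p, miR-30a-3p, miR-30e-3p, miR-30c-2-3p, miR-30d-3p and miR-30c-1-3p, and no neighbours in that order overlapped in range. The knockout had the same order of means, with the ranges of miR-30c-5p and miR-30d-5p overlapping. The rarest member, miR-30c-1-3p, rested on 78 to 123 reads a library, and each other arm on at least 243.

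**Figure D1:**
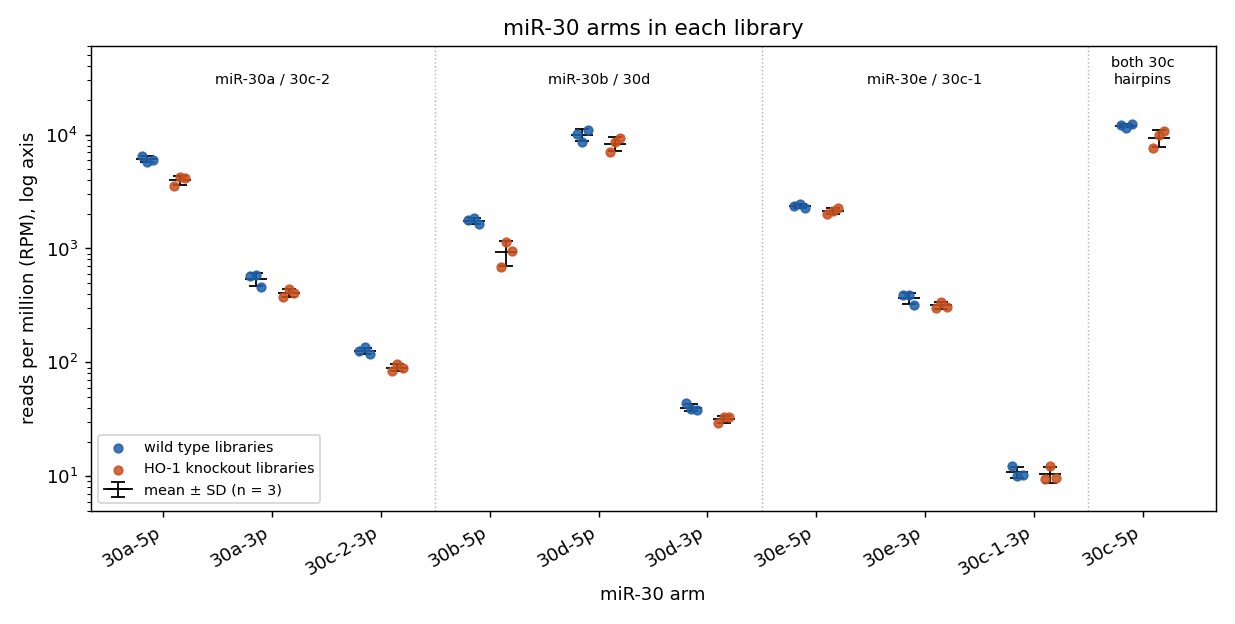
RPM of each miR-30 arm (log axis) in the 3 wild type and 3 knockout libraries, grouped by hairpin pair, with mean and SD. All knockout points lie below all wild type points for 7 of 10 arms, miR-30a-5p and miR-30b-5p among them. The same held for 41.7% of the 218 miRNAs with a mean of at least 10 RPM. Levels run from about 10 RPM for miR-30c-1-3p to 12348 RPM for miR-30c-5p.

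Between genotypes, miR-30a-5p and miR-30b-5p fell in the knockout and the other 8 arms did not pass the test (limma on log2(RPM + 1), Benjamini-Hochberg adjusted p below 0.05 over 570 miRNAs). That is 2 of 10 members called lower, beside 5.61% of all tested miRNAs and 11.9% of the 218 with a mean of at least 10 RPM, the abundance of every member. No member rose, against 0.702% of all tested miRNAs. The members' median log2 change was -0.35, beside -0.29 for the 218 miRNAs. In 7 of 10 members every knockout library lay below every wild type library, and 41.7% of the 218 miRNAs did the same. Over all 570, 32 were called lower and 4 higher, a split that became 29 lower and 20 higher when libraries were rescaled by TMM, a trimmed mean of ratios between libraries. TMM moved the median of the 218 by 0.21 on the log2 scale, to -0.07.

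miR-30b-5p showed the steepest fall of the family. It stood at 1796, 1845 and 1636 RPM in the wild type against 694, 1147 and 950 RPM in the knockout. The genotypes did not overlap, and the knockout libraries spread more widely, at 930.0 ± 227 RPM against 1759 ± 109 RPM in the wild type (SD, n = 3). The wild type mean was 1.89-fold higher, a change of -0.95 on the log2 scale (SE 0.18, adjusted p = 0.023 by limma). After TMM scaling the change was -0.72 and still passed (limma adjusted p = 0.021). The call was lost without wild type library 1, 2 or 3 (limma adjusted p = 0.066, 0.088 and 0.053) and without knockout library 3 (0.090). On recovered whole reads it passed in edgeR's quasi-likelihood test (log2 change -0.72, adjusted p = 0.0048) and in DESeq2 (log2 change -0.70, adjusted p = 0.00024). In the authors' deposited table its log2 fold change was -0.92 with a p-value of 2.13e-05.

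The other arms of the same hairpin pair did not pass. miR-30d-5p, known in many tissues as one of the more abundant miR-30 arms, had a log2 change of -0.26 (95% interval -0.58 to 0.05, limma adjusted p = 0.33). Its change was -0.04 with TMM, -0.02 with RLE and -0.05 with upper-quartile scaling, and -0.14 on deposited RPM without knockout library 1. miR-30d-3p had 43.6, 38.7 and 38.1 RPM in the wild type against 29.3, 33.2 and 32.9 RPM in the knockout, without overlap, and a log2 change of -0.33 (limma adjusted p = 0.29), or -0.11 after TMM scaling. The ratio of miR-30b-5p to its neighbour miR-30d-5p, chosen after its values were seen, was 0.177, 0.213 and 0.148 in the wild type against 0.0992, 0.133 and 0.102 in the knockout, a log2 difference of -0.68 with no overlap (exact two-sided permutation p = 0.1, the smallest that 3 against 3 libraries allow). Of the ratios between any 2 miRNAs of at least 10 RPM, 46.4% did not overlap either. The library total, with miR-122-5p as a part of it, cancels in a ratio within a library. Whether the mixture of cells, or anything else that goes with miR-122-5p, moved this ratio was not tested.

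The 3 locus-specific arms of the miR-30a and miR-30c-2 pair were all lower in every knockout library. They are among the 7 of 10 members, and the 41.7% of the 218 miRNAs of at least 10 RPM, for which this held. miR-30a-5p stood at 6505, 5786 and 6023 RPM in the wild type against 3522, 4230 and 4151 RPM in the knockout. Its highest knockout library was thus below its lowest wild type library by more than either group's SD (366 and 388 RPM). The wild type mean was 1.54-fold higher, a change of -0.62 on the log2 scale (SE 0.10, adjusted p = 0.016 by limma). The change was -0.40 after TMM scaling (limma adjusted p = 0.043). The call was lost with 2 other scalings, RLE (limma adjusted p = 0.059) and upper quartile (0.079), and without knockout library 3 (0.073). On recovered whole reads it passed in edgeR's quasi-likelihood test (log2 change -0.41, adjusted p = 0.035) and in DESeq2 (log2 change -0.39, adjusted p = 0.0074). In the authors' deposited table its log2 fold change was -0.62 with a p-value of 0.00482. Of the 10 members, miR-30a-5p and miR-30b-5p were the 2 with a deposited p-value below 0.05. The share of all entries below 0.05 was not counted, so this count has no background here. It comes from the same libraries.

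miR-30c-2-3p, the 3p arm that marks the neighbouring hairpin, had 125.9, 135.1 and 118.6 RPM in the wild type against 83.4, 96.2 and 90.0 RPM in the knockout. Its change of -0.49 on the log2 scale missed the threshold (SE 0.13, adjusted p = 0.064 by limma). It passed when only miRNAs with a mean of at least 10 RPM were tested (limma adjusted p = 0.037). Rescaling made the change smaller, at -0.27 with TMM (limma adjusted p = 0.24), -0.25 with RLE (0.26) and -0.28 with upper quartile (0.19), and with the replicate block the adjusted p was 0.20. miR-30a-3p, with 568, 587 and 461 RPM in the wild type against 374, 443 and 403 RPM in the knockout, had a change of -0.40 on the log2 scale that did not pass (SE 0.13, adjusted p = 0.14 by limma), and of -0.18 after TMM scaling.

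On deposited RPM the miR-30e and miR-30c-1 pair showed the smallest differences, and none of its arms passed. miR-30e-5p had 2343, 2435 and 2252 RPM in the wild type against 2024, 2122 and 2248 RPM in the knockout. The groups only just did not overlap, and the log2 change was -0.14 (95% interval -0.34 to 0.07, limma adjusted p = 0.43). miR-30e-3p ran from 315.7 to 392.5 RPM in the wild type, against 301.2 to 341.0 RPM in the knockout (log2 change -0.20, 95% interval -0.50 to 0.09, limma adjusted p = 0.42). miR-30c-1-3p ran from 9.97 to 12.3 RPM and from 9.40 to 12.3 RPM, a change of -0.05 on the log2 scale with a wide interval of -0.55 to 0.45 (limma adjusted p = 0.89). After TMM scaling these 3 arms had changes above 0, at 0.09, 0.02 and 0.15, so their direction depends on the scaling. The rank of the pair does too, since miR-30d-5p changed by only -0.04 with TMM. miR-30c-5p, the arm shared by 2 pairs, had a change of -0.37 on the log2 scale (SE 0.13, adjusted p = 0.18 by limma). That change was -0.14 with TMM, -0.13 with RLE and -0.15 with upper-quartile scaling, and -0.22 on deposited RPM without knockout library 1.

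**Figure D2:**
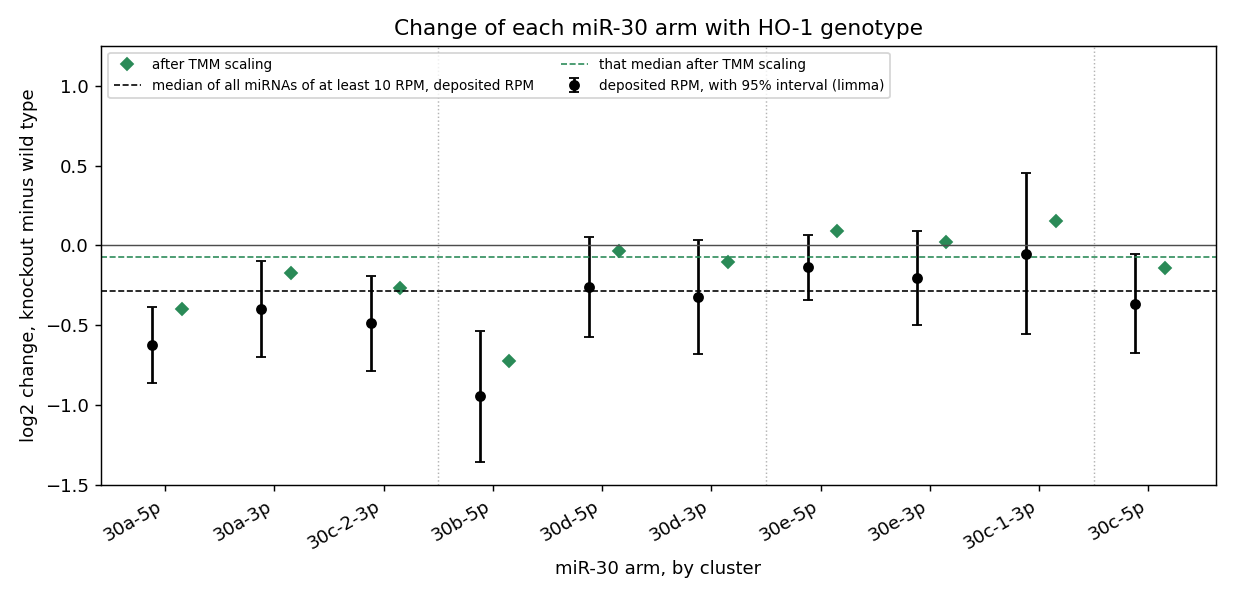
Log2 change (knockout minus wild type) of each arm on deposited RPM with its 95% interval (circles) and after TMM scaling (diamonds), beside the median of all miRNAs of at least 10 RPM (dashed lines, -0.29 and -0.07). miR-30b-5p and miR-30a-5p lie lowest, at -0.95 and -0.62. The miR-30e and miR-30c-1-3p arms lie above the dashed lines, at changes below 0 on deposited RPM and above 0 after TMM scaling. miR-30d-5p lies just above both lines as well, at -0.26 and -0.04.

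Knockout library 1 was the lowest knockout library for 10 of the 10 members. It also had the highest share of miR-122-5p, 46.4%, and was the lowest knockout library for 143 of the 218 miRNAs of at least 10 RPM. Its part in the falls was not tested beyond leaving it out. Without it the log2 change was -0.75 for miR-30b-5p (limma adjusted p = 0.035) and -0.54 for miR-30a-5p (limma adjusted p = 0.038).

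The hairpin pairs were then compared with each other within each library, leaving out miR-30c-5p. Summed, the miR-30a and miR-30c-2 pair went from 6770 ± 375 to 4464 ± 425 RPM, the miR-30b and miR-30d pair from 11729 ± 1095 to 9256 ± 1357 RPM, and the miR-30e and miR-30c-1 pair from 2720 ± 131 to 2459 ± 116 RPM (SD, n = 3). None of the 3 sums overlapped between genotypes, where 41.7% of single miRNAs of at least 10 RPM were lower without overlap. These sums are on the deposited RPM scale, and all 3 arms of the miR-30e pair change direction with TMM scaling, as given above. The log2 ratio of the miR-30a pair to the miR-30e pair was 1.39, 1.20 and 1.36 in the wild type against 0.77, 0.95 and 0.86 in the knockout, a difference of -0.46 (exact two-sided permutation p = 0.1, as low as 3 against 3 can give). Against the miR-30b pair the difference was -0.26, also without overlap (exact p = 0.1), but it overlapped once the reads of miR-30c-5p were split equally between its 2 hairpins (difference -0.14, exact p = 0.2). The miR-30b pair against the miR-30e pair differed by -0.20 and overlapped (exact p = 0.3). None of these 3 tests could have passed 0.05.

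Single arms of the miR-30a pair were also set against the same arms of the miR-30e pair. The level of miR-30a-5p was 2.78, 2.38 and 2.67 times that of miR-30e-5p, from which it differs by 1 base, in the wild type against 1.74, 1.99 and 1.85 times in the knockout. The level of miR-30a-3p was 1.45, 1.505 and 1.46 times that of miR-30e-3p in the wild type against 1.24, 1.30 and 1.31 times in the knockout. The level of miR-30c-2-3p was 10.3, 13.5 and 11.6 times that of miR-30c-1-3p in the wild type against 8.87, 7.80 and 9.40 times in the knockout. This last ratio carries more counting error, since miR-30c-1-3p had only 78 to 123 reads a library. Its 95% limits from read counts were 10.2 to 14.6 RPM in wild type library 1 and 7.65 to 11.8 RPM in knockout library 3. None of these 3 ratios overlapped between genotypes (exact two-sided permutation p = 0.1 for each). Among 8 ratios between single arms, chosen after their values were seen, 6 did not overlap, beside the 46.4% of ratios between any 2 miRNAs.

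Within the 5p reads, the shares of miR-30a and miR-30b were smaller in the knockout. miR-30a-5p made up 19.8%, 19.1% and 18.1% of the summed 5p reads in the wild type against 16.9%, 16.3% and 15.2% in the knockout. miR-30b-5p made up 5.46%, 6.10% and 4.92% and then 3.33%, 4.41% and 3.47%. Both were lower in every knockout library. miR-30e-5p went the other way, with 7.12%, 8.06% and 6.77% in the wild type against 9.73%, 8.16% and 8.22% in the knockout. It did so narrowly, with a highest wild type share of 8.06% and a lowest knockout share of 8.16%. The shares of miR-30c-5p (37.3% ± 0.6 and 37.9% ± 1.4) and miR-30d-5p (30.8% ± 2.2 and 33.5% ± 0.4; SD, n = 3) overlapped between genotypes. Shares of 1 total depend on each other, so they are given without a test. No background was counted for such shares. Of the ratios between any 2 miRNAs of at least 10 RPM, 46.4% did not overlap between genotypes.

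**Figure D3:**
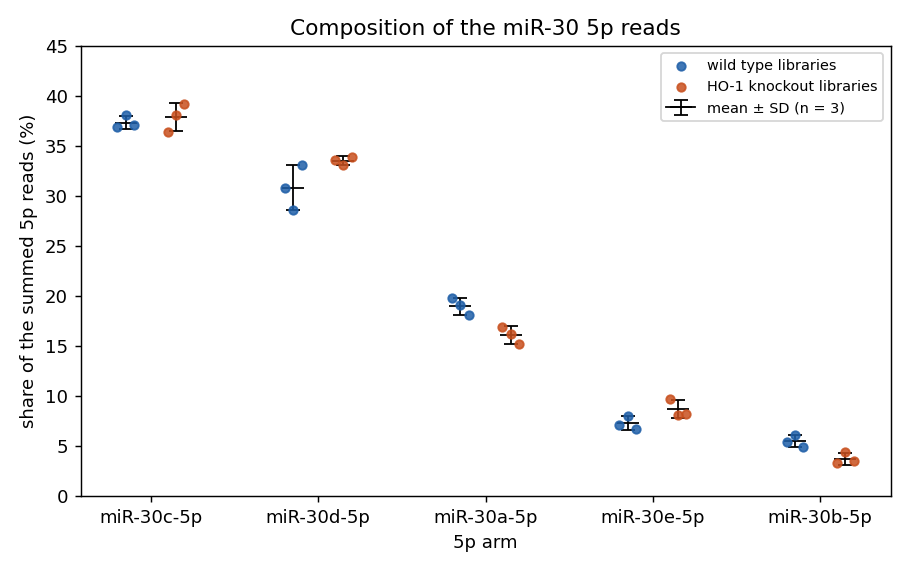
Share of each 5p arm in the summed 5p reads (%), per library, with mean and SD. miR-30c-5p and miR-30d-5p hold the 2 largest shares in every library. The points of miR-30a-5p, miR-30b-5p and miR-30e-5p separate by genotype, those of miR-30e-5p only narrowly. Of the ratios between any 2 miRNAs of at least 10 RPM, 46.4% separate as well.

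The balance between the arms of 1 hairpin was tested over 94 hairpins with both arms at a mean of at least 1 RPM (limma on log2((5p RPM + 1)/(3p RPM + 1)), adjusted over the 94). None of miR-30a, miR-30d and miR-30e passed, while 24.5% of the 94 did. All 3 favoured the 5p arm to very different degrees. miR-30d had 232, 224 and 289 5p reads for each 3p read in the wild type against 239, 259 and 282 in the knockout. miR-30a had 11.4, 9.85 and 13.1 in the wild type against 9.41, 9.54 and 10.3 in the knockout. miR-30e had 5.97, 6.24 and 7.13 in the wild type against 6.72, 6.22 and 7.30 in the knockout. The genotypes overlapped for each of the 3. The log2 ratio differed by -0.23 for miR-30a (95% interval -0.60 to 0.15, limma adjusted p = 0.43), 0.06 for miR-30d (-0.31 to 0.44, limma adjusted p = 0.82) and 0.07 for miR-30e (-0.30 to 0.43, limma adjusted p = 0.81).

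The arm balance of miR-30b did pass. Its 3p arm is not among the 10 members but is in the table, with 66.7, 66.4 and 55.8 RPM in the wild type against 55.4, 53.4 and 53.3 RPM in the knockout (log2 change -0.21, limma adjusted p = 0.44). The 5p to 3p ratio of miR-30b was 26.9, 27.8 and 29.3 in the wild type against 12.5, 21.5 and 17.8 in the knockout. Every knockout library was below the wild type, and the log2 ratio fell by 0.73 (SE 0.20, limma adjusted p = 0.0100). By the same test 10.6% of the 94 hairpins had a lower ratio in the knockout, and miR-30b was looked at after its values were seen. The call was lost without knockout library 1, the library with the lowest ratio (log2 difference -0.52, limma adjusted p = 0.066), and with 0.1 RPM in place of 1 RPM added to each arm (0.055).

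**Figure D4:**
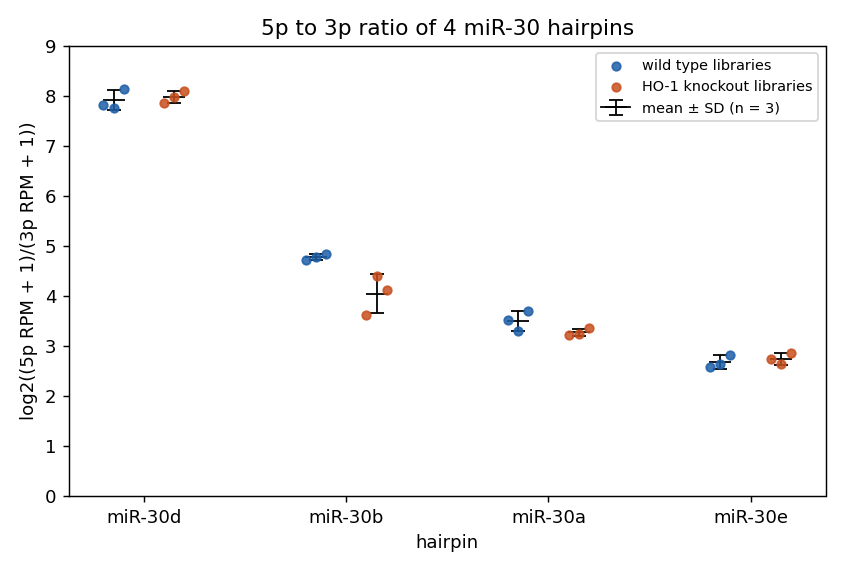
Log2 ratio of 5p to 3p reads, with 1 RPM added to each arm, of 4 miR-30 hairpins in each library, with mean and SD. The genotypes overlap for miR-30d, miR-30a and miR-30e, and the 3 knockout libraries of miR-30b lie below all 3 wild type libraries.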

How the data were processed

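Small RNA libraries from 1 μg of total RNA were read from one end over 50 bp, per the labels' protocols. The authors deposited RPM for 764 miRNA entries in 6 libraries, and also a mean RPM per genotype, a log2 fold change and a p-value, per the file headers; the test behind that p-value is not stated in any source used here. The submitters' processing notes name the tools FastQC, BWA and edgeR and the build rn6 without saying what each was used for. Each of the 6 value columns carries the name of 1 sample.

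The 194 rows at 0 in every library were left out, and the other 570 were analysed on the log2(RPM + 1) scale in limma 3.58.1 (eBayes with trend), with genotype as the only factor and Benjamini-Hochberg adjustment over all 570. Fold changes on this scale understate changes of rare miRNAs. The design allowed for counts or RPM; the table holds RPM. Arm ratios were fitted in limma without the trend. TMM, RLE and upper-quartile scaling, totals without miR-122-5p, pseudocounts of 0.1 and 5 RPM, a filter at a mean of 10 RPM, the replicate block and each library left out were alternatives. Whole reads were recovered from the RPM steps: 97.8% to 98.9% of values above 0 lay within 0.0051 RPM of a whole read. The step of wild type library 1, 0.0996 RPM, is too close to 0.1 to be seen in low values alone. On these reads edgeR 4.0.16 (quasi-likelihood) called 61 miRNAs and DESeq2 1.42.0 called 72, as alternatives. PCR copies were not removed, so limits from read counts cover counting error only. Fits were tested on simulated data.

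The members, the marker lists and the named miRNAs (all members, miRNAs with a member's seed, miR-30b-3p, and the 3 miRNAs most correlated with the most abundant member) were chosen with earlier results of these data known. Coordinates on GRCr8 are not printed, since it is not the build named in the notes.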

Additional observations from a re-analysis of the deposited data

How the results depend on the processing

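Of the 10 members, 2 were called on the deposited RPM, 1 with RLE scaling and 1 with upper-quartile scaling. TMM scaling, both other pseudocounts, the replicate block, edgeR and DESeq2 each called 2, and the filter at 10 RPM called 3. Totals without miR-122-5p also called 2, miR-30a-5p (log2 change -0.43, limma adjusted p = 0.019) and miR-30b-5p (-0.75, limma adjusted p = 0.021). With any 1 library left out, 0 to 2 members were called (0 without knockout library 3). Over all miRNAs, 32 were called lower and 4 higher on the deposited RPM. RLE scaling called 27 lower and 20 higher, and upper-quartile scaling 25 lower and 19 higher. Over all miRNAs the 36 calls became 61 with edgeR's quasi-likelihood test and 72 with DESeq2 on recovered reads, and 5 to 26 with 1 library left out (17 without wild type library 2, and 13, 21 and 5 without knockout library 1, 2 and 3). Over the 94 hairpins the 23 calls became 9 with a pseudocount of 0.1 RPM, 36 with 5 RPM, and 11 to 25 with 1 library left out (11 without wild type library 1, 15 without knockout library 1); miR-30a, miR-30d and miR-30e were called in none of these fits. The log2 changes of miR-30e-5p, miR-30e-3p and miR-30c-1-3p turned positive with TMM (0.087, 0.020 and 0.15), RLE (0.10, 0.035 and 0.17) and upper-quartile scaling (0.078, 0.010 and 0.14), in edgeR (0.075, 0.0091 and 0.16) and in DESeq2 (0.096, 0.031 and 0.19), and those of miR-30e-5p and miR-30c-1-3p (0.060 and 0.13) with totals without miR-122-5p. None of these passed, and the cause was not tested. With 1 library left out, the log2 change of miR-30c-1-3p ran from -0.17 to 0.034, the arm ratio of miR-30d from -0.0083 to 0.18, the ratio of miR-30e-5p to miR-30c-1-3p from -0.18 to 0.049, and the share difference of miR-30c-5p from -0.097 to 1.31 percentage points. The differences between hairpin pairs kept their sign in every alternative run.

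The numbers 1 to 3 do not mark a shared litter, batch or day in the labels. Deviations from the genotype means correlated at 0.033, 0.18 and 0.20 between same-numbered libraries, and not every library correlated best with its own number. With the replicate block 22 miRNAs were called, miR-30a-5p (limma adjusted p = 0.048) and miR-30b-5p (limma adjusted p = 0.033) among them.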

Other observations

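Over the 6 libraries, the miRNAs outside the family whose log2(RPM + 1) followed miR-30c-5p, the most abundant member, most closely were miR-93-5p (Pearson r = 0.988), miR-362-5p (r = 0.983) and miR-15b-3p (r = 0.973), out of 208 compared. These points share their libraries and the genotype difference, and the values are a description. miR-93-5p, a member of the miR-106b cluster known from proliferating cells, had 339, 298 and 318 RPM in the wild type against 188, 263 and 289 RPM in the knockout. Like miR-30c-5p it was lowest in knockout library 1 and did not pass the test (limma adjusted p = 0.26).

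miR-30c-5p had 87.7, 79.3 and 95.8 reads for each read of its 2 3p arms together in the wild type, and 81.6, 91.3 and 108 in the knockout. The genotypes overlapped in this ratio, and it was not tested.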
